A study of Mus musculus with 9 samples.

Results

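Washout-only mineralocorticoid receptor (MR) sites were the MR binding sites that were called after corticosterone (CORT) had been given and washed out and not after CORT alone or after vehicle. They were selected on overlap alone, from the peaks of the authors' MACS2 list for MR after CORT and washout (treatment iii). A peak was a member when it shared no base with any peak of MR after CORT (treatment ii), of the glucocorticoid receptor (GR) after CORT, or of either receptor after vehicle (treatment i). On chromosomes 1 to 19 and X, 851 of the 4856 MR washout peaks (17.5%) met this rule.

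The binding data were ChIP-nexus profiles, a chromatin immunoprecipitation in which an exonuclease trims the DNA back to the bound protein. The cells were N2A, an established mouse neuroblastoma line, transiently transfected with both EGFP-GR and mCherry-MR, so that every list came from cells carrying both tagged receptors. The methods of the study describe rat receptor constructs whereas the series description says mouse receptors. Cells received vehicle, CORT (100 nM, 20 min), or that same CORT pulse and then 2 washes and 40 min in steroid-free medium. The 3 replicates of each condition were combined by the authors before peaks were called, so each condition is 1 list, the variation among replicates is unknown here, and a test compares sets of sites of these libraries.

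MR and GR are closely related nuclear receptors that bind corticosterone, MR with the higher affinity. When hormone binds, both move to the nucleus and recognize the same palindromic glucocorticoid response element (GRE), the half-site AGAACA followed after 3 bases by its mirror TGTTCT. They can also be brought to DNA by other transcription factors or by each other. The washout list asks which MR sites are called once the steroid has been removed from the medium.

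The washout-only sites with the closest matches to the palindrome show what the best of these sequences look like. The first group holds the 10 members of highest −log10 p among those with a GRE of at most 1 mismatch in its 12 fixed positions, each as 45 bases of the plus strand of GRCm38 (mm10) with the 15-base palindrome in capitals.
Ppfia2: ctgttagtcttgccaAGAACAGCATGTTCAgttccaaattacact
Ptpn1: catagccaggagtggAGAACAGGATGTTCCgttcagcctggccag
Klhl29: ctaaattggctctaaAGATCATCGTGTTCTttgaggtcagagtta
Ascc1: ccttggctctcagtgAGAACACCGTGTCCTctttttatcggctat
Prlhr: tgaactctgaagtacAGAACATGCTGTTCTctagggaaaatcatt
Nrf1: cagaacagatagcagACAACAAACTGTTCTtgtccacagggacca
Parn: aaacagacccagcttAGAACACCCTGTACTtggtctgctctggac
Ptprt: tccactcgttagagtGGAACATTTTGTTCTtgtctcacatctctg
Dnajc11: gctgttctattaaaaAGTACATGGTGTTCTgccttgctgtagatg
Fgfr2: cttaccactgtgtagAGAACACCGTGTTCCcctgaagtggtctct
In this order the stretches lie at chr10:106610424-106610468, chr2:167968670-167968714, chr12:5439207-5439251, chr10:60082063-60082107, chr19:60440769-60440813, chr6:30118031-30118075, chr16:13588916-13588960, chr2:162328071-162328115, chr4:151902369-151902413 and chr7:131733975-131734019. The site near Prlhr, the gene of the prolactin-releasing hormone receptor, carried the palindrome with no mismatch, centred 7 bp from the summit, and the other 9 sites had 1 mismatch each. In all, 8 of the 10 centres were within 30 bp of the summit, and the centre at Klhl29 lay 74 bp from it. The sites at Ppfia2, Ptpn1, Ascc1, Nrf1, Parn, Ptprt and Fgfr2 were in introns, and those named for Klhl29, Prlhr and Dnajc11 were outside the gene with the nearest start. Their distances to the nearest MR CORT summit ran from 118 bp at Ptprt to 243766 bp at Prlhr.

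A second group shows 3 sites of high −log10 p with weaker matches. Rbfox1 is shown because it was tied for the strongest member, Pwwp2a because its match was centred 2 bp from the summit, and Fkbp5 because it is a standard glucocorticoid target and its best match had 4 mismatches, too many to be counted as a GRE here.
Rbfox1: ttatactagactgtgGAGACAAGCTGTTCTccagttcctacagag
Pwwp2a: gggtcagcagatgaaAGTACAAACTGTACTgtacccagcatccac
Fkbp5: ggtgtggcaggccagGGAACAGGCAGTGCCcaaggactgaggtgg
These stretches lie at chr16:5595563-5595607, chr11:43711762-43711806 and chr17:28516099-28516143. The matches at Rbfox1 and Pwwp2a had 3 and 2 mismatches.

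The values that chose the sites are described with no test. The −log10 p of a peak is the strength of MACS2's evidence against input and grows with sequencing depth, so it ranks peaks within a list and is not an amount of binding. Among washout-only sites it ran from 4.92 to 19.3 with a median of 7.69 and quartiles of 6.45 and 9.01. The median was 10.4 at the 3615 kept sites, which are the MR washout peaks that overlap an MR CORT peak and no vehicle peak. It was 9.01 at the 804 kept sites without a GR CORT peak. The mirror set was the 6822 CORT-only sites, MR CORT peaks that overlap no MR washout, GR CORT or vehicle peak. Its median −log10 p was 7.83, in a list of its own. Washout-only peaks had a median width of 51 bp, against 79 bp at kept sites and 64 bp at kept sites without a GR CORT peak. CORT-only peaks were as narrow, with a median of 49 bp. The −log10 p of washout-only peaks took only 202 distinct values, and 125 of the 851 sites shared the value 7.69.

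The rule divided the list at its edge by a few bases. The 5 members nearest to an excluding peak lay 0, 1, 1, 1 and 2 bp from it, with −log10 p of 6.76, 6.36, 7.69, 8.24 and 6.25. The 5 kept sites with the smallest overlap shared 1 bp with an MR CORT peak, with −log10 p of 7.05, 7.69, 7.05, 9.01 and 6.42. In all, 26 members came within 10 bp of an excluding peak and 156 within 100 bp, while 62 kept sites overlapped by 10 bp or less. When peaks within 500 bp of one another counted as shared, 558 sites were left in place of 851.

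The summits of washout-only sites lay between 30 and 2255220 bp from the nearest MR CORT summit. The median distance was 7983 bp (95% interval 6013 to 10578) and the quartiles were 410 and 46722 bp. Within 100 bp there were 62 sites (7.29%), within 500 bp 236 (27.7%) and within 1 kb 285 (33.5%). A further 160 lay at 1 to 10 kb, 267 at 10 to 100 kb, and 139 (16.3%) over 100 kb away. The classes differ widely in width, so their counts, such as 49 at 500 to 1000 bp, do not show separate groups of sites. The nearest GR CORT summit was at a median of 17623 bp and never closer than 49 bp.

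The share of washout-only sites with a GRE varied with the distance to the nearest MR CORT summit. A GRE, counted as a palindrome with at most 3 mismatches lying within 100 bp of the summit, was present at 70 of the 236 members within 500 bp of an MR CORT summit (29.7%) and at 45.2% of the other members. The odds ratio was 0.511. It is given as a description, because the rule used the position relative to MR CORT peaks. The comparison was also chosen after the shares were seen. The share was 38.7% within 100 bp, 29.1% at 100 to 200 bp, 24.2% at 200 to 500 bp and 22.4% at 500 to 1000 bp. It was 48.1% at 1 to 10 kb, 46.4% at 10 to 100 kb and 47.5% beyond, so the low shares were at the members between 100 and 1000 bp. The median −log10 p was 7.69 in both the near group and the group over 10 kb away, and the median GC content of the windows was 48.8 to 50.2% in the classes under 1 kb against 46.3 to 48.8% in those over 1 kb, whose part in the result was not tested.

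**Figure D1:**
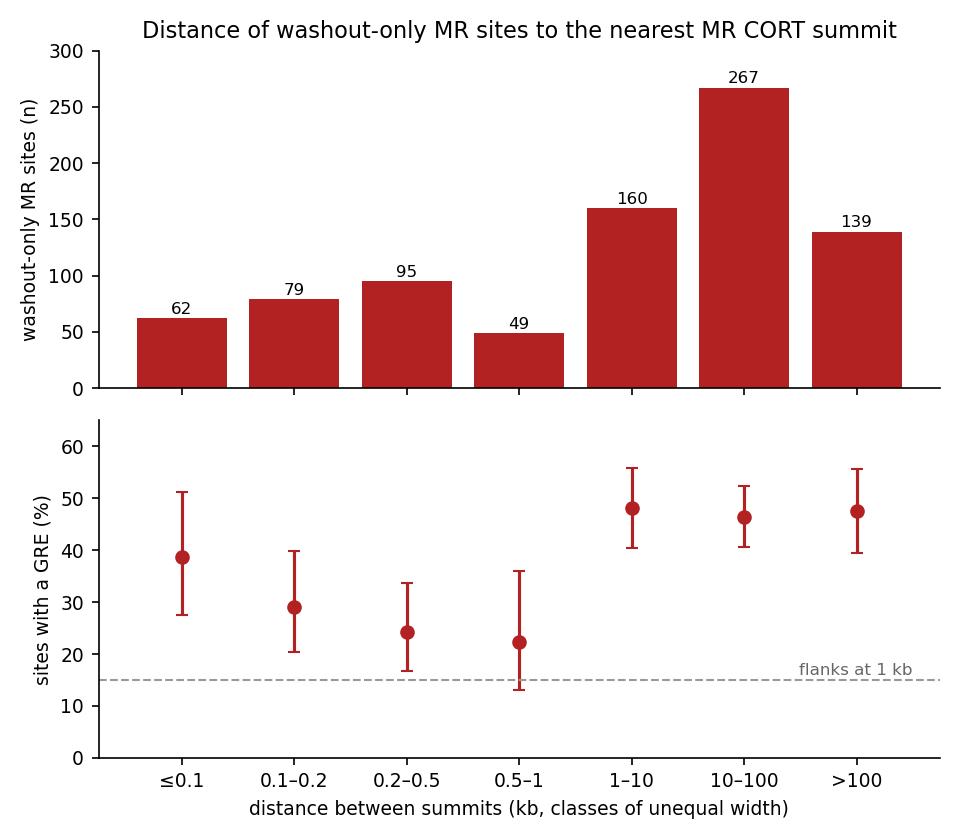
Washout-only MR sites by distance to the nearest MR CORT summit (kb, 7 classes of unequal width). Upper panel, number of sites; lower panel, percentage with a GRE, with 95% Wilson intervals. The dashed line is the 14.9% found in the flanking windows, and the shares are lowest at 200 to 1000 bp.

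The MR CORT peaks beside the near members were themselves often still called after washout. The 236 near members had 230 distinct nearest MR CORT peaks, of which 87 (37.8%) overlapped an MR washout peak, against 24.5% of all MR CORT peaks. Of the 62 members within 100 bp, 10 had such a neighbour, so at the other members of that class the CORT peak had no washout peak on it and the washout peak stood next to it. Of the 230 neighbours, 36.1% held a GRE (95% interval 30.2 to 42.5%), and the members beside them had 29.7% (24.2 to 35.8%). Members and neighbours are paired, and 141 members lay within 200 bp of an MR CORT summit, where their windows share bases. These intervals treat them as separate, and the difference was not tested.

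Across all 851 washout-only sites, 348 held a GRE (40.9%, 95% interval 37.6 to 44.2%). The share over all MR washout peaks was 45.6%. In equal windows placed 1000 bp upstream and downstream of these summits, it was 14.9% (odds ratio 3.94, two-sided Fisher's exact test, adjusted exact p = 3.42e-44 after Benjamini-Hochberg adjustment over 44 motif comparisons). The matches were centred at the summits, at a median of 18 bp from them, and 52.3% lay within 20 bp. Washout-only sites thus held the receptors' palindrome more often than their surroundings did.

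**Figure D2:**
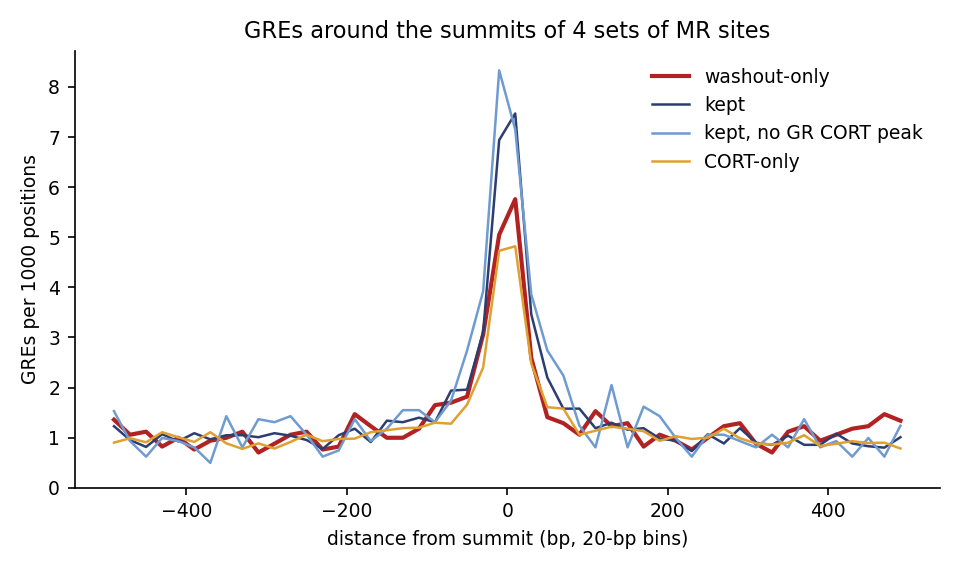
GREs (at most 3 mismatches) per 1000 positions against distance from the summit (bp, 20-bp bins) for 4 sets of MR sites. All 4 lines peak within 20 bp of the summit, at 5.76 for washout-only sites and 7.47 for kept sites, and beyond 100 bp the washout-only line lies between 0.705 and 1.53.

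The GRE share of washout-only sites was below that of kept sites, at 48.1% (odds ratio 0.746, adjusted exact p = 0.000973). Against kept sites without a GR CORT peak, which like the members overlap no GR CORT peak, it was 40.9 against 51.5% (odds ratio 0.652, adjusted exact p = 0.000128). The difference from all kept sites did not pass the test when sites were compared within 5 bands of −log10 p (pooled odds ratio 0.899, adjusted p = 0.366 by the Mantel-Haenszel test in place of the exact test). It did not pass either when members within 500 bp of an MR CORT summit were left out (45.2 against 48.1%, odds ratio 0.889, adjusted exact p = 0.364). Within washout-only sites the share was 34.9% in the lowest band of −log10 p and 47.2% in the highest. In kept sites, which come from the same list, these bands had 38.5 and 53.6%. In kept sites without a GR CORT peak they had 45.5 and 59.3%. Washout-only sites were below that set in each of the 5 bands, which was not tested.

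Close matches to the palindrome gave another order. At most 1 mismatch was found at 37 washout-only sites (4.35%), 4 of them with none, and at 3.49% of kept sites, 1.77% of CORT-only sites and 0.176% of flanking windows. With at most 2 mismatches the shares were 15.9% of washout-only sites and 16.5% of kept sites, and this difference did not pass the test (odds ratio 0.951, adjusted exact p = 0.959). CORT-only sites had 10.5%, below the washout-only sites (odds ratio 1.61, adjusted exact p = 5.75e-05). With 3 mismatches the 40.9% of washout-only sites and the 37.0% of CORT-only sites did not differ past the threshold (odds ratio 1.18, adjusted exact p = 0.0806), and with 4 mismatches the order turned, at 77.0 against 81.2% (odds ratio 0.772, adjusted exact p = 0.016). In windows of 50 bp to each side, 3 mismatches gave 31.8% of washout-only and 27.4% of CORT-only sites (odds ratio 1.24, adjusted exact p = 0.025).

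**Figure D3:**
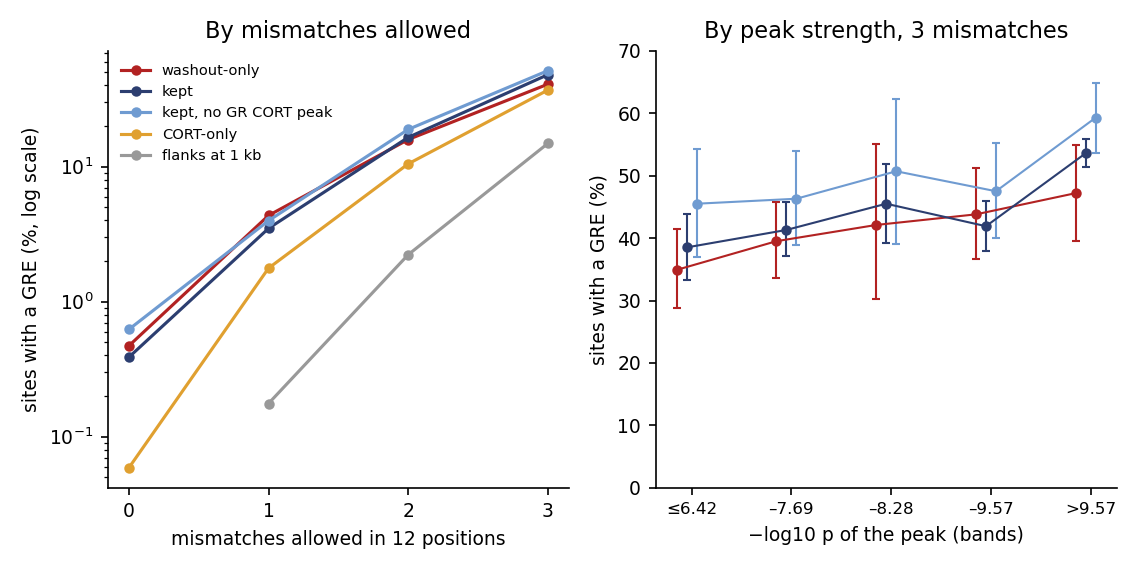
Left, percentage of sites (log scale) with a GRE against the number of mismatches allowed, for 4 sets of MR sites and the flanking windows; no flanking window had a match with 0 mismatches. Right, percentage with at most 3 mismatches in 5 bands of −log10 p for the 3 sets of the MR washout list, with 95% Wilson intervals; at 2 mismatches washout-only sites (15.9%) lie beside kept sites (16.5%) and above CORT-only sites (10.5%).

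Other transcription factor motifs were searched in the same windows, on both strands. AP-1 (TGACTCA or TGAGTCA, the element of FOS and JUN dimers) was present at 78 washout-only sites (9.17%), against 3.70% of flanking windows (adjusted exact p = 5.36e-07) and 6.64% of CORT-only sites (odds ratio 1.42, adjusted exact p = 0.0269). The GATA element AGATAA was at 152 sites (17.9%), against 10.6% of flanks (adjusted exact p = 6.09e-06) and 12.2% of CORT-only sites (odds ratio 1.56, adjusted exact p = 6.9e-05). The palindromic homeodomain element of Phox2, a factor of sympathetic neuroblasts, was at 46 sites (5.41%, at most 1 mismatch), against 3.06% of flanks (adjusted exact p = 0.0177) and 3.36% of CORT-only sites (odds ratio 1.65, adjusted exact p = 0.0177). None of these 3 motifs differed past the threshold from kept sites, which had 9.24% AP-1, 15.7% GATA and 5.56% Phox2. Nor did any differ past it from kept sites without a GR CORT peak, which had 6.72, 17.9 and 6.97%. The Phox2 difference from CORT-only sites was lost within bands of GC content (pooled odds ratio 1.46, adjusted p = 0.0771 by the Mantel-Haenszel test in place of the exact test). It was also lost in windows of 50 bp to each side (odds ratio 1.65, adjusted exact p = 0.171).

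The single half-site AGAACA was at 34.8% of washout-only sites against 16.0% of flanks (adjusted exact p = 2.57e-24) and 35.6% of kept sites. The E-box CAGCTG was at 13.9% against 9.64% of flanks (adjusted exact p = 0.00889), with 14.9% of kept and 14.2% of CORT-only sites. NF-1 (half-sites TTGGC and GCCAA around 5 bases, at most 2 mismatches) was at 10.1% against 6.93% of flanks (adjusted exact p = 0.0243). Kept sites had 9.52% and CORT-only sites 8.38%. Neither the E-box nor NF-1 differed past the threshold from kept or CORT-only sites. CCAAT, the element of NF-Y, was at 24.4% of washout-only sites, above kept sites (20.6%, odds ratio 1.25, adjusted exact p = 0.0429) and CORT-only sites (19.9%, adjusted exact p = 0.0123), while the flanks of the same sites had 24.8%. The difference from kept sites was lost in all 4 alternatives, such as windows of 200 bp to each side (odds ratio 1.19, adjusted exact p = 0.0784). The SP1 element GGGCGG was at 5.88% of sites, ETS (CCGGAAG) at 0.823% and the cyclic AMP response element at 0.118%, and none of these 3 differed past the threshold from any of the other sets.

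**Figure D4:**
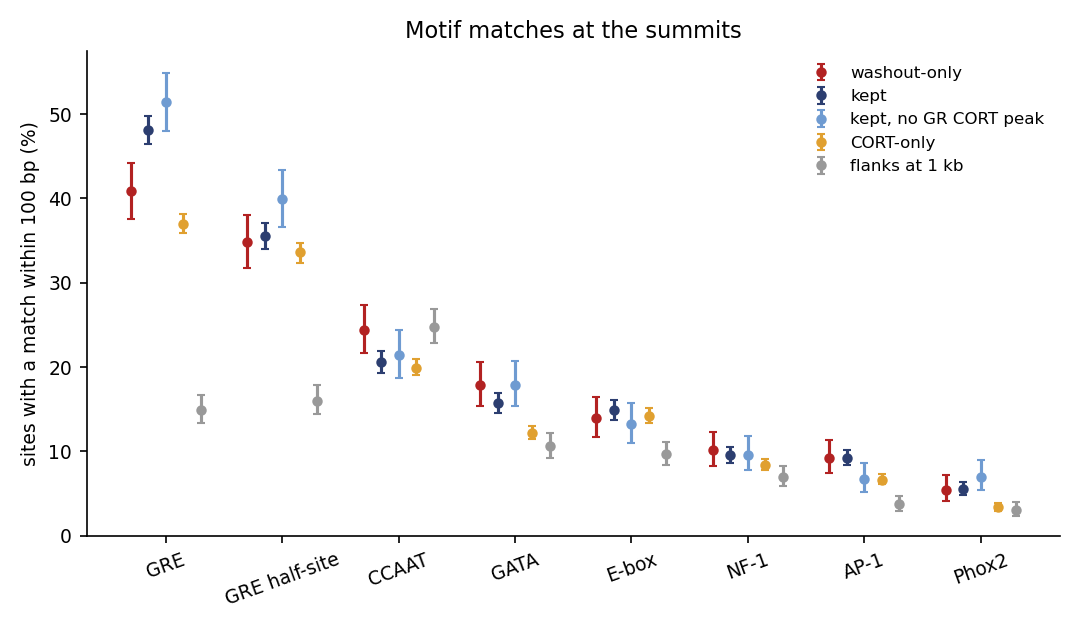
Percentage of sites with a match within 100 bp of the summit for 8 motifs, in washout-only, kept, kept without GR CORT peak and CORT-only MR sites and in flanking windows, with 95% Wilson intervals. For GATA, AP-1 and Phox2 the washout-only points (17.9, 9.17 and 5.41%) lie above those of CORT-only sites and flanks. Kept sites have 15.7, 9.24 and 5.56%, and kept sites without a GR CORT peak 17.9, 6.72 and 6.97%.

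Washout-only sites lay mostly in introns and away from transcript starts. Summits within 1 kb of a transcript start numbered 99 (11.6%), in exons 37 (4.35%), in introns 430 (50.5%), within 5 kb of a gene 76 (8.93%) and farther from every gene 209 (24.6%). Kept sites had 12.5% at transcript starts, 4.01% in exons, 49.9% in introns and 23.7% over 5 kb from genes. CpG-rich windows made up 2.23% of washout-only and 3.73% of kept sites (adjusted exact p = 0.341), and summits in repeat-masked sequence 7.29 and 5.34% (adjusted exact p = 0.341). None of the 21 comparisons of position passed Fisher's exact test after adjustment.

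No washout-only site overlapped a GR washout peak, and for 0 of 851 sites the 95% Wilson interval reaches 0.449%, for counting error alone. The members were chosen to lack GR CORT peaks. Only 21 of the 229 GR washout peaks lay outside GR CORT peaks, and 13 lay outside every list of the rule. The rule thus nearly fixes the count of 0, and the 141 kept sites with a GR washout peak (3.90%) are given as a description. The kept sites without a GR CORT peak had 3 of 804 (0.373%, adjusted exact p = 0.343). A border pair of input chromatin, a double edge called by MACE in DNA that was not immunoprecipitated, overlapped 3 members (0.353%) and 16 kept sites (0.443%, adjusted exact p = 1).

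Chromosome 8, where the input border pairs were densest (31.4 per Mb, next 9.09 on chromosome 13), held 68 washout-only sites (7.99%) against 12.2% of kept sites (odds ratio 0.625, adjusted exact p = 0.00117). Kept sites without a GR CORT peak had 8.46% (adjusted exact p = 0.788). Members ran from 0.0877 per Mb on X to 0.525 per Mb on chromosome 8. On X, 15 members made up 37.5% of the MR washout peaks, the highest proportion of the 20 chromosomes, and chromosome 8 had the lowest at 12.1%. The sites were mostly alone, with 23 of 851 within 500 bp of another member, 67 within 10 kb and a median of 433166 bp to the nearest other member.

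The 20 members with the highest −log10 p were mostly in introns. The top value of 19.3 was shared by a site 289768 bp upstream of Rbfox1, a neuronal splicing regulator, and a site in an intron of Prkg1, a cyclic GMP-dependent kinase. The nearest MR CORT summit was 681 bp from the first and 183391 bp from the second. They were followed by Vps45, a protein of vesicle fusion (18.0), Ppfia2, a presynaptic scaffold (16.2), Rab40c, a small GTPase (16.2), and Zc3h3 (15.2). Then came Tgfb3, a growth factor (15.2), Pwwp2a, a chromatin protein (15.1), Fkbp5 (15.1), Ptpn1, a tyrosine phosphatase that acts on the insulin receptor (15.1), and Ccdc155 (15.0). Syt1, the calcium sensor of transmitter release, Sfi1 and Bmp2k had 14.7 each, and Klhl29 and Arid2, a chromatin remodelling subunit, 13.6 each. Ascc1, Anxa6 and Rgs6, a regulator of G-protein signalling, had 13.2 each. Of these 20 sites, 17 were in introns, 11 were over 10 kb from an MR CORT summit, 3 were within 1 kb of one, and 13 held a GRE. The member at Bmp2k was 799405 bp from an MR CORT summit and that at Syt1 278 bp.

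Fkbp5 encodes a cochaperone of the receptors that is induced by glucocorticoids and limits their activity. Its washout-only site at chr17:28516108-28516170 was in an intron, 1388 bp into the gene from its start. It was 504 bp from an MR CORT summit of −log10 p 20.7, which was still called after washout, and 460 bp from a GR CORT summit of −log10 p 14.2. Of 11 MR washout peaks in or within 5 kb of the gene, 10 overlapped an MR CORT peak, and the washout-only peak ranked the fifth by −log10 p, at 15.1. MR had 15 peaks there after CORT and GR 12, and GR had none after washout. The washout-only site thus stood among kept sites and not alone.

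**Figure D5:**
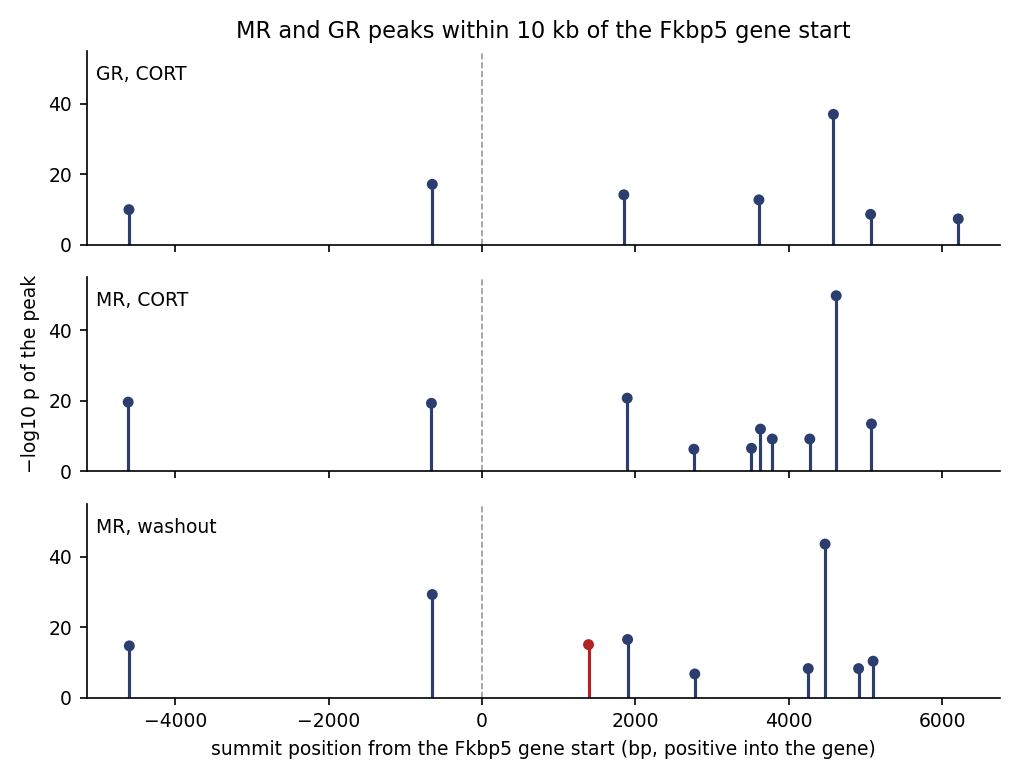
Peaks within 10 kb of the Fkbp5 gene start, as summit position from the start (bp, positive into the gene) against −log10 p, for GR after CORT, MR after CORT and MR after washout. The washout-only peak (red) stands at 1388 bp with −log10 p 15.1, beside the kept peak at 1897 bp with 16.5; the other washout peaks are blue.

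Washout-only sites lay in or within 5 kb of 550 of 21755 protein-coding genes (2.53%). Of these genes, 392 (71.3%) also had an MR CORT peak, against 20.7% of all protein-coding genes, with no adjustment for gene length. An MR CORT peak was absent at 158, and 128 had no CORT peak of either receptor. In 292 of the 550 (53.1%) every MR washout peak was a washout-only site. Only 54 of the 550 had more than 1 member. The genes with 3 members were Chn2, a regulator of Rac, Gse1, Nav3, a protein of growing neurites, Prkg1 and the noncoding 2210408F21Rik. The gene model Gm20388 had 9, spans 4434.882 kb of chromosome 8 and runs over Gse1 and other genes, which share several of these sites with it. The 3 sites of Nav3 had −log10 p of 10.4, 10.4 and 7.47 and lay 18032, 21715 and 19582 bp from an MR CORT summit, and those of Prkg1 had 6.42, 7.69 and 19.3.

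Among 30 glucocorticoid-responsive genes 6 had a washout-only site (20.0%, against 2.53% of all protein-coding genes), and 20 had an MR CORT peak (66.7%, against 20.7%). The list was fixed with earlier results of these data known. The 6 were Fkbp5, Zbtb16, Tgm2, Irs2, Mt2 and Ddit4. At Zbtb16, a zinc finger repressor, the site had −log10 p of 12.3, a GRE of 2 mismatches and an MR CORT summit at 1112 bp. At Tgm2, a transglutaminase, it had 8.58 and lay in a coding exon, 278 bp from an MR CORT summit. Irs2, an insulin signalling adaptor, had 7.29 at 531 bp, and Ddit4, an inhibitor of mTOR signalling, 6.42 at 797 bp. At Mt2, a metallothionein, the site at chr8:94171416-94171463 had 6.76 and a GRE of 3 mismatches. It was the member that touched a GR CORT peak without overlap, 97 bp between summits, and Mt2 had no MR CORT peak.

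Members at the other lists are given beside the same 2.53% of all protein-coding genes, with no test. Of 38 neuronal adhesion and axon guidance genes 4 had one (10.5%), and 15 had an MR CORT peak (39.5%). They were Slit3 with 2 sites (−log10 p 5.86 and 9.57), Slit1 (6.03), whose products repel axons, Nrxn2, a synaptic adhesion protein (10.4), and Sema6a, a semaphorin (7.69). The Sema6a site was 57 bp from an MR CORT summit and the Slit1 site 457 bp. Of 17 receptor chaperones and coregulators 2 had one (11.8%), the steroid receptor coactivators Ncoa2 (5.86) and Ncoa3 (9.63, with a GRE of 2 mismatches). The Ncoa2 site was 959173 bp from the nearest MR CORT summit, and the Ncoa3 site, in a UTR of the neighbouring Sulf2, 16940 bp. None of 22 sympathetic neuroblast genes and none of 15 AP-1 and immediate early genes had a washout-only site. At a share of 2.53%, lists this short can hold none, so no lack is read from these counts. An MR CORT peak was at 9 and 7 of them (40.9 and 46.7%, against 20.7% of all protein-coding genes).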

How the data were processed

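ChIP-nexus libraries of MR, GR and input chromatin came from 3 treatments, with 3 replicates per condition combined by the authors. Per the study's methods and the submitters' processing notes, the authors aligned reads with Bowtie2 to mm10 (GRCm38), removed barcode duplicates, and called peaks with MACS2 2.1.1.20160309 against input at a false discovery rate of 0.05 and border pairs with MACE. Deposited −log10 columns give the p and the q of a peak, the latter headed as fold enrichment. The deposited score is the whole part of 10 times that −log10 q, with 1 exception in the MR washout list. MACE's p-value, deposited with most border pair lists, was not used. The files hold no read counts, so depth is unknown from them and its effect on which weak peaks were called cannot be measured here. The paper's text gives ranges of uniquely mapped reads over treatments and over replicates. Intervals cover counting error only.

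Peak starts were read as counted from 0. Peaks overlapped when they shared 1 bp. Windows of 201 bp around summits were read from GRCm38, and genes were those of GENCODE M21. Shares have 95% Wilson intervals and sets were compared by two-sided Fisher's exact tests at 0.05, adjusted by Benjamini-Hochberg within motifs (44 tests), positions (21), other libraries (6) and chromosome 8 (3). A CpG-rich window had at least 50% GC and an observed over expected CpG of at least 0.6. Alternatives changed mismatches, windows, thresholds, comparison sets or pooled odds ratios over bands by the Mantel-Haenszel method.

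Members and lists were chosen with earlier results of these data known. Named genes were the 20 members of highest −log10 p, genes with 3 or more members, genes of the 5 lists with a member, the 5 sites to each side of the rule's edge, and up to 10 members with a GRE of at most 1 mismatch. A site outside genes took the gene with the nearest start. Fisher's exact test was run without adjustment on simulated sets close in size, share and odds ratio to the GRE comparison with kept sites. With the planted odds ratio 96 of 100 were called, and 6 of 100 with none. Rarer motifs, smaller sets and adjusted p-values were not simulated. Python 3.11.15, numpy 2.4.6, pandas 2.3.3, scipy 1.17.1, statsmodels 0.14.6, pysam 0.24.0, samtools 1.23.1 and matplotlib 3.10.9 were used. The gene of 1 of the 20 strongest members is not reported here. Chromosome Y and unplaced sequences were not used.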

Additional observations from a re-analysis of the deposited data

Results flagged for a closer look

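Border pairs called by MACE in the receptor libraries were used in no comparison above, and those of 2 receptor libraries overlapped more of these sites than any input or vehicle list did. The MR washout library had a border pair at 13 of the 851 sites (1.53%) and the MR CORT library at 12 (1.41%), although none of the 851 overlaps an MR CORT peak. The largest number for an input or vehicle list was 3. A border pair of both MR libraries was present at 1 site. Other peaks of the same list had more. The MR washout border pairs were at 403 of 3615 kept sites (11.1%). They were at 42 of the 804 kept sites without a GR CORT peak (5.22%). The MR CORT border pairs were at 817 of 3615 kept sites (22.6%) and at 231 of 6822 CORT-only sites (3.39%). The excess over the input and vehicle lists was not tested.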

How the results depend on the processing

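Of 131 recomputed values, 93 kept their direction and their side of the threshold (or stayed within 1.5 times the count or within the 95% interval of the distance), including all 6 of the GRE share against flanking windows. The number of sites fell from 851 to 558 when peaks within 500 bp counted as shared and to 188 at a −log10 q of at least 5, and was 1183 with exclusion by the MR CORT list alone. The median distance of 7983 bp became 5145 bp with that exclusion. The GRE odds ratio against kept sites, 0.746, no longer passed at 2 mismatches (0.951), within −log10 p bands (0.899), at −log10 q of at least 5 (0.842) or without the near members (0.889), and its adjusted p ran from 2.37e-09 to 0.959 over the alternatives. Against CORT-only sites, 1.18 passed at 2 mismatches (1.61) and in 50 bp windows (1.24) and turned at 4 mismatches (0.772). CCAAT against kept sites (1.25) passed in none of 50 bp windows (1.30), 200 bp windows (1.19), −log10 p bands (1.23) and GC bands (1.15). Phox2 against CORT-only sites did not pass in 50 bp windows (1.65) or GC bands (1.46), while AP-1 and GATA against CORT-only sites passed in all 5 alternatives chosen after seeing the data, 1 of which, the −log10 p bands, sets values of separate lists side by side. Against kept sites without a GR CORT peak, the difference in GR washout peaks (odds ratio 0) and on chromosome 8 (0.940) did not pass. The cause of these changes was not tested, except that fewer sites enter at a higher −log10 q.

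The odds ratios against kept sites that turned without passing the test were near 1 in most cases. They were the half-site in 50 and 200 bp windows (1.08, 1.04), AP-1 in 50 and 200 bp windows and −log10 p bands (1.13, 1.12, 1.02), and GATA in GC bands (0.993). NF-1 turned in 200 bp windows (0.933), Phox2 in 50 and 200 bp windows (1.17, 1.02), E-box in 50 bp windows and GC bands (1.05, 1.04), and SP1 in −log10 p and GC bands (1.03, 1.24). At −log10 q of at least 5, exon (0.827), intergenic (0.941), repeat-masked (0.739) and input border pair (1.74) shares turned, as did intron with protein-coding genes or 2 kb promoters (0.977, 0.991) and input border pairs within −log10 p bands (1.33).

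No paired analysis was possible because each condition is 1 list of combined replicates with no replicate number, and no replicate was left out for the same reason. Peaks share libraries and are not independent samples, so p-values describe these sets of sites.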
